A study of Homo sapiens with 9 samples.

Results

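Hydroxysteroid dehydrogenases and related steroid enzymes were followed in HT29, an established colon cancer cell line of human origin. The genes considered were HSD3B1, HSD3B2, HSD11B2, HSD17B2, HSD17B4, HSD17B8, HSD17B11, STS, SRD5A1 and SRD5A3, and every probe set annotated to 1 of these symbols alone was taken. This gave 16 of 54675 probe sets for 9 of the 10 genes. The level of SRD5A3 was not analysed here, and only the sequence before its start was searched. The set was chosen by the level of HSD3B1, which lay lower in cells given caffeic acid than in untreated cells, so the values of all 9 genes in that comparison are a description, with no test. Cells were left untreated (Control) or were treated for 24 h, either with the phenolic compound caffeic acid at 1.68 µg/mL (CA) or with instant caffeinated coffee at 7 µg/mL (ICC). Each group had 3 Affymetrix arrays numbered 1 to 3, and all results come from this 1 cell line.

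Steroid enzymes make, inactivate and release steroid hormones. The enzymes of the HSD3B family turn precursors of the adrenal and placental pathway into ketosteroids (HSD3B1 mainly in placenta and other peripheral tissues, HSD3B2 in adrenal gland and gonads), HSD11B and HSD17B enzymes switch glucocorticoids, androgens and estrogens between active and weakly active forms, and STS frees steroids from their sulfates. The colon is a target of mineralocorticoids, where HSD11B2 shields the mineralocorticoid receptor by turning cortisol into cortisone, and HSD17B2 inactivates estradiol and testosterone in the gut lining. Several enzymes that carry the family name act mainly on other substrates: HSD17B4 works in the peroxisomal breakdown of fatty acids and HSD17B8 in mitochondrial fatty acid synthesis.

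HSD3B1 and HSD3B2 lie close together on chromosome 1, HSD3B1 at 119507203 to 119515058 and HSD3B2 at 119414931 to 119423034 (GRCh38.p14), and code for closely related enzymes. The 250 bases before the annotated start of each are shown for this pair of close relatives. The arrays do not compare their patterns. The HSD3B2 probe set was dim (mean 3.91 log2), as was the second of HSD3B1 (3.89), and only 204515_at of HSD3B1 was brighter (6.19). The sequences are those of RefSeq on the plus strand, at chr1:119506953-119507202 for HSD3B1 and chr1:119414681-119414930 for HSD3B2, and capitals mark the longest run of bases that both share.
HSD3B1: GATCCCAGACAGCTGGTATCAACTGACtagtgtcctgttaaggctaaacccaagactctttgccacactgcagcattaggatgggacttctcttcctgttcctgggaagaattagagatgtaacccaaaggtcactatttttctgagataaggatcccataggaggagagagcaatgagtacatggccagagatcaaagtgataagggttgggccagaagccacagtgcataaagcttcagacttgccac
HSD3B2: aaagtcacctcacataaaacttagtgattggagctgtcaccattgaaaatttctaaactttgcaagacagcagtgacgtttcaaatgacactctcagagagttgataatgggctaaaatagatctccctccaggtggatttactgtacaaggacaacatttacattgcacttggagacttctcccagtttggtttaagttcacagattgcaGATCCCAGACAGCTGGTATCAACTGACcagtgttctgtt
The shared run of 27 bases began 250 bases before the start of HSD3B1 and 39 bases before that of HSD3B2. The first listed starts of the genes are thus offset by 211 bases in this alignment. The run begins at the first base of the HSD3B1 window, so the window edge bounds the run and the overlap. With the windows lined up on this run, and 50 bases past each start included, 78 of 89 overlapping bases were identical (87.6%). The letters AGGTCA, the core that many nuclear receptors bind, were looked for on both strands after the sequences had been seen. They stood once before HSD3B1, 122 bases before its start, and not in the window of HSD3B2, while 12.1% of 35116 RefSeq windows of this length held them. The letters GATAA, the core of the site of GATA factors, stood at 2 places before HSD3B1 and at 1 before HSD3B2, with 20.4% of all windows holding them. They also stood at 2 places before SRD5A3 and in no window of the 5 other members that had one. Of the 10 genes, 8 had a promoter window in the RefSeq table, and in the window of the first listed start HSD3B1 alone held AGGTCA. HSD3B1 had 2 listed starts and STS 5, and only the first of each was searched. The shares over all windows count every listed start. A match of letters is no evidence that a factor binds.

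The arrays were alike in overall brightness, with a median intensity between 43.8 and 46.6. Of 11 colon epithelial markers, 7 were at or above the median of 6.46 log2 over all 19775 genes, up to KRT18, a keratin of simple epithelia, at 14.38, while CDH17 stood at 4.14. None of 6 measured markers of steroid-producing cells (range 3.21 to 6.24) and none of 4 trophoblast markers (4.61 to 5.26) reached that median. Of 3 leukocyte markers CD14 did (7.14), and of 5 fibroblast and endothelial markers COL1A1 did (7.24). The labels do not say whether same-numbered arrays share a culture or a day, nor whether replicates came from separate cultures, so a p-value here weighs a difference against the spread of these arrays alone, which may be technical. With 3 arrays in a group the precision is low. In bulk RNA, fewer cells with a transcript and less of it per cell cannot be told apart.

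HSD3B1 was read by the probe sets 204515_at and 241111_at. On 204515_at the log2 intensity was 6.94, 6.60 and 6.01 on Control arrays 1, 2 and 3. It was 6.48, 5.90 and 5.22 on the CA arrays and 6.67, 6.33 and 5.59 on the ICC arrays, in the same order. Array 1 was the brightest and array 3 the dimmest of each group, and the groups overlapped. The means were 6.52 ± 0.472 (SD, n = 3) in Control, 5.87 ± 0.630 in CA and 6.20 ± 0.552 in ICC. Within each number, however, the order of the groups was the same: Control highest, ICC between, CA lowest.

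**Figure D1:**
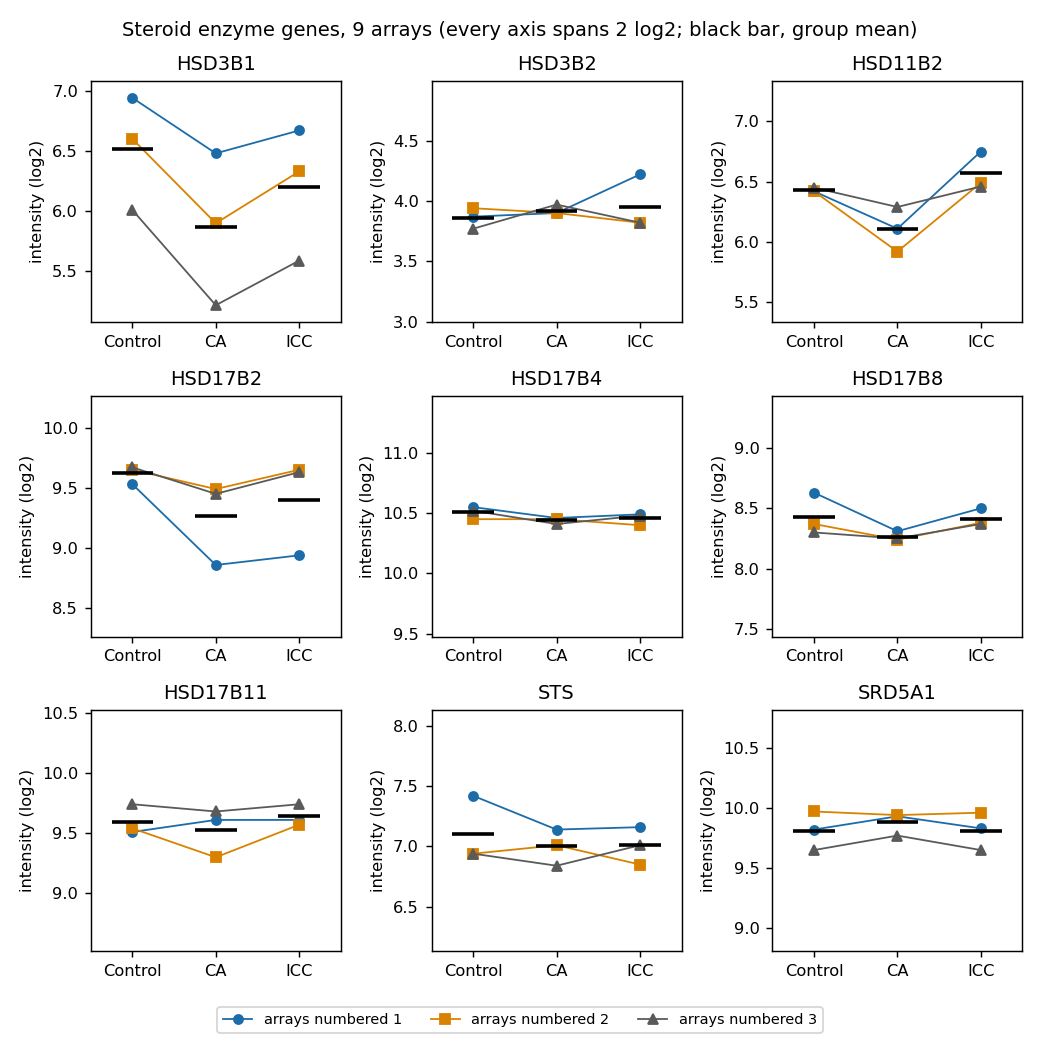
Log2 intensity (y axis) of each steroid enzyme gene in Control, CA and ICC (x axis), from the brightest probe set of the gene. Points are single arrays, lines join arrays of the same number, black bars are group means, and every axis spans 2 log2. HSD3B1 lines run nearly in parallel from 6.94 at the highest to 5.22 at the lowest array, and HSD11B2 is lower on the CA arrays and not on the ICC arrays.

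The variation of HSD3B1 over the 9 arrays lay mostly between the array numbers. The numbers accounted for 73.1% of it, the groups for 25.5%, and 1.39% was left over, where over all genes the medians were 31.8% between numbers and 21.8% between groups. The means of the arrays numbered 1, 2 and 3 were 6.70, 6.27 and 5.61. Their range of 1.09 log2 exceeded the treatment differences, against a median of 0.132 over all genes. Of the 19775 genes, 67 besides HSD3B1 had a range at least as large. The gap between the 3′ and 5′ control probe sets, a measure of RNA integrity, was on average 0.23, 0.34 and 0.32 log2 for ACTB and -0.011, 0.0062 and 0.046 for GAPDH on arrays numbered 1, 2 and 3, and its part in HSD3B1 was not tested.

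**Figure D2:**
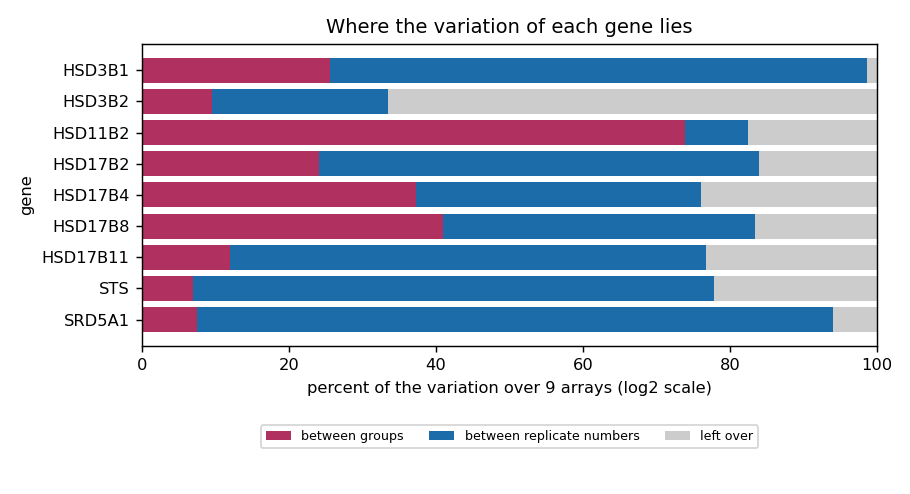
Percent of each gene's variation over the 9 arrays (x axis) that lies between the 3 groups, between the 3 array numbers, or in neither, for the brightest probe set of each gene (y axis). The number takes 73.1% in HSD3B1 and 86.6% in SRD5A1, while the groups take 73.9% in HSD11B2.

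Taken number by number, HSD3B1 in CA stood at -0.46, -0.71 and -0.79 log2 from Control, with a mean of -0.65 (1.57-fold lower) and an SD of the pair differences of 0.171. In ICC the differences from Control were -0.27, -0.28 and -0.42, with a mean of -0.32 and an SD of 0.0841. Both comparisons use the same Control arrays. ICC minus CA was 0.19, 0.43 and 0.37.

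The second HSD3B1 probe set, 241111_at, and the single HSD3B2 probe set, 206294_at, were dim. On 241111_at the 9 arrays lay between 3.56 and 4.02 log2, and on 206294_at between 3.77 and 4.22, both below the lower quartile of 4.15 of probe set means when averaged. The HSD3B1 probe sets did not move together (r = -0.27 over 9 arrays, a description of points that share arrays), and 241111_at differed from Control by +0.082 in CA and by -0.027 in ICC. The pattern of HSD3B1 therefore rests on 204515_at, and with both probe sets averaged HSD3B1 stood at -0.28 from Control in CA and at -0.17 in ICC. For HSD3B2 the differences from Control were +0.059 in CA and +0.092 in ICC, and the highest value, 4.22, was that of ICC array 1.

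HSD11B2, which inactivates cortisol, had a different pattern. Its log2 intensity was 6.42, 6.42 and 6.45 on the Control arrays, of which arrays 1 and 2 held the identical value. It was 6.11, 5.92 and 6.29 in CA, and 6.75, 6.49 and 6.46 in ICC. All CA arrays lay below and all ICC arrays above the Control arrays, and the Control arrays lay close together (SD 0.0208, n = 3, against 0.182 in CA and 0.160 in ICC). Of its variation 73.9% lay between groups and 8.52% between numbers, the largest group share of the 9 genes. Among all genes 0.673% were lower in CA and higher in ICC in 3 of 3 pairs each.

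HSD17B2, which inactivates estradiol and testosterone, was set apart by 2 arrays. Its values were 9.53, 9.65 and 9.67 in Control, 8.86, 9.49 and 9.45 in CA, and 8.94, 9.65 and 9.63 in ICC. Both treated arrays numbered 1 stood well below the rest, and the highest CA array was just below the lowest Control array. The difference from Control was -0.67 in CA and -0.59 in ICC for number 1. For numbers 2 and 3 it was -0.16 and -0.23 in CA, and it was -0.0029 and -0.043 in ICC. Without CA array 1 the mean difference in CA went from -0.35 to -0.15, and without ICC array 1 that in ICC went from -0.21 to +0.022.

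HSD17B8, HSD17B4 and HSD17B11 varied little. HSD17B8 stood at 8.63, 8.37 and 8.30 in Control, 8.31, 8.24 and 8.25 in CA, and 8.50, 8.38 and 8.37 in ICC, so that every ICC array was above every CA array while both groups overlapped Control. HSD17B4 on 201413_at stayed between 10.40 and 10.55 on all arrays, and its second probe set, 1563696_at, between 3.10 and 3.26, a level among the dimmest 1.83% of probe sets. HSD17B11, an enzyme found on lipid droplets, lay between 9.30 and 9.74, with CA array 2 the lowest.

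STS, which hydrolyses steroid sulfates, was read by 4 probe sets. The brightest, 203767_s_at, gave 7.42, 6.94 and 6.94 in Control, 7.14, 7.01 and 6.84 in CA, and 7.16, 6.85 and 7.01 in ICC. Control array 1 was the highest. The mean differences of the 4 probe sets from Control ran from -0.23 to -0.093 in CA and from -0.19 to -0.086 in ICC, all below 0. On 203768_s_at 3 of 3 pairs were lower in each treatment, as on 14.9% of all probe sets in CA and 14.4% in ICC, and the limma fit of ICC against Control gave it an adjusted p of 0.638. On 203770_s_at all CA arrays lay below all Control arrays, as on 4.06% of probe sets. The correlation between these probe sets over the 9 arrays ran from 0.13 to 0.88, and the 3 lowest values were those with 203770_s_at, the dimmest of the 4.

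SRD5A1, a steroid reductase that turns testosterone into dihydrotestosterone, followed the array number almost alone on its brightest probe set, 204675_at. On 204675_at it stood at 9.82, 9.97 and 9.65 in Control, 9.93, 9.94 and 9.77 in CA, and 9.83, 9.96 and 9.65 in ICC. Array 3 was the lowest of each group and array 2 the highest, and ICC differed from its same-numbered Control by less than 0.01 on average (-0.0031). The other probe sets, 210959_s_at and 211056_s_at, differed from Control by -0.065 and -0.12 in CA and by -0.089 and -0.11 in ICC. Array numbers accounted for 46% and 63.6% of the variation of these probe sets, against 86.6% on 204675_at.

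Caffeic acid against untreated cells is the comparison that chose these genes, and nothing is read from its counts. Of the 9 genes 7 had a mean difference below 0, as did 48.6% of all genes, and 5 were lower in 3 of 3 pairs (HSD3B1, HSD11B2, HSD17B2, HSD17B4 and HSD17B8), against 13.9% of all genes. None was higher in 3 of 3 pairs, against 13.8%. All CA arrays lay below all Control arrays for HSD11B2 and HSD17B2, against 3.46% of genes. The median difference over the 9 genes was -0.10 log2, beside 0.00274 over all genes.

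**Figure D3:**
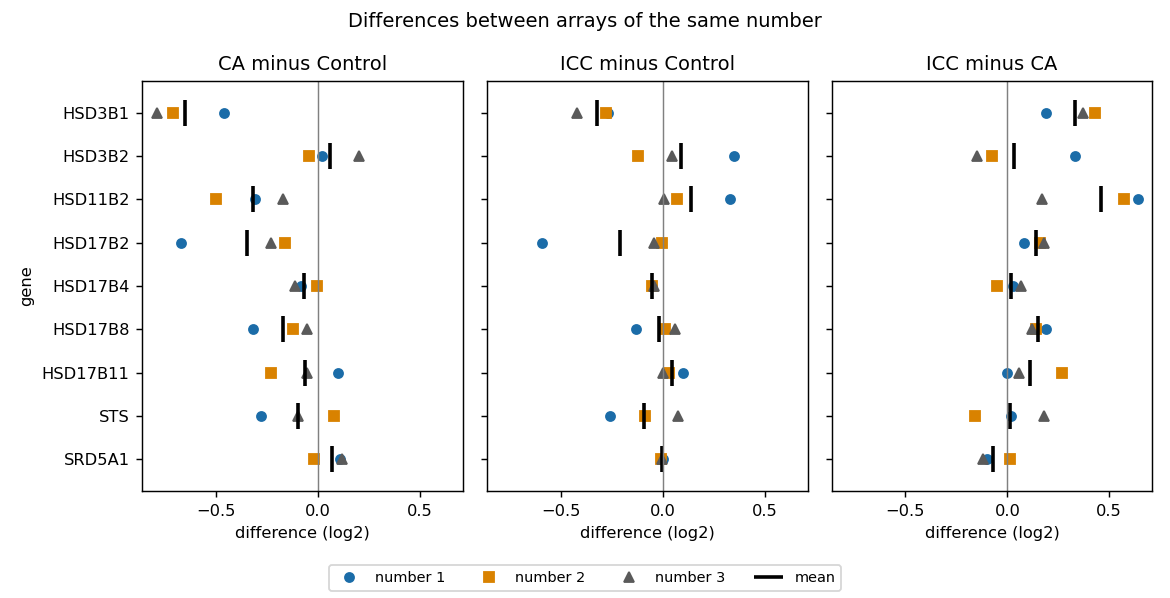
Log2 differences between arrays of the same number (x axis) for each gene (y axis), for CA minus Control, ICC minus Control and ICC minus CA. Symbols are the 3 numbers and black bars their mean. HSD3B1 points lie below 0 against Control in both treatments, and HSD11B2 points lie below 0 in CA, above 0 in ICC.

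Instant coffee against untreated cells was the comparison of the beverage, on the same Control arrays. HSD3B1 was 1.25-fold below Control, at -0.32 ± 0.349 log2 (SE, n = 3 per group). HSD11B2 stood higher, at +0.14 ± 0.105, and at 0.046 without ICC array 1. HSD17B2 stood lower, at -0.21 ± 0.203. The remaining 6 genes lay between -0.09 and +0.092. Of the 9 genes 6 were below 0, where 39.8% of all genes were, and with arrays centred on their medians 6 of 9 and 49.3%. HSD3B1, HSD17B2 and HSD17B4 were lower in 3 of 3 pairs, against 12.2% of all genes, and HSD11B2 and HSD17B11 were higher in 3 of 3 pairs, against 21.1%. HSD11B2 was the 1 member whose ICC arrays lay above all Control arrays, as they did for 8.46% of genes. HSD3B1 was chosen on these Control arrays, so its values here are a description. With limma over all 19775 genes, none of the other members passed at an adjusted p under 0.05, and 0% of all genes did. The same held with the array number as a block. Without the block none of them had an unadjusted p under 0.05, against 7.73% of all genes. The adjusted p was 0.761 for HSD11B2 and 0.811 for HSD17B2.

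With the array number as a block, which takes the shared offsets of same-numbered arrays out of the error, the SE of HSD3B1 went from 0.349 to 0.0778. No interval or p of HSD3B1 is read from this fit, since that gene was chosen on these Control arrays. On its brightest probe set, none of the other members had an unadjusted p under 0.05 (limma), against 12.4% of all genes. The dimmer STS probe set 203768_s_at, fitted with the block among all probe sets, had an unadjusted p of 0.0237 (limma, adjusted p 0.318). Its 95% interval was -0.35 to -0.031. The 95% interval of HSD11B2 with the block was -0.073 to 0.35 and that of HSD17B2 -0.45 to 0.031, and both hold 0.

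Instant coffee against caffeic acid compares the treatments with each other, at doses that differ. HSD11B2 was 1.38-fold above CA in ICC, at +0.46 ± 0.105 log2 (SE, n = 3 per group). HSD3B1 stood at +0.33, as a description, and HSD17B8 at +0.15 ± 0.0902. These 3 genes and HSD17B2 were higher in ICC in 3 of 3 pairs, against 15.5% of all genes. Of the 9 genes 8 had a mean above 0, where 39.4% of all genes were below 0. With arrays centred on their medians 52.6% of all genes were below 0, and so were 3 of the 9, with HSD17B4 at -0.014 and STS at -0.019. Every ICC array was above every CA array for HSD11B2 and HSD17B8, against 4.11% of all genes. The CA arrays used here are also those on which the set was chosen.

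No p of HSD3B1 between ICC and CA is read either, since its values on the CA arrays chose the set. Of the other 8 members limma passed 0 at an adjusted p under 0.05, against 0% of all genes, and with the block 0 against 0.00506%. At an unadjusted p under 0.05 without the block there was HSD11B2 alone (p 0.00122, adjusted p 1), against 2.69% of all genes. With the block HSD11B2 was again the 1 of these 8 members with an unadjusted p under 0.05 (p 6.4e-04), against 5.96% of all genes, at an adjusted p of 0.563. The pair differences of HSD11B2 were 0.64, 0.57 and 0.17, with an SD of 0.25. The fit takes its error from all 9 arrays, and the Control arrays varied least (SD 0.0208, against 0.182 in CA and 0.160 in ICC). The 95% interval of HSD11B2 with the block was 0.25 to 0.67. For HSD17B4 it was -0.13 to 0.16 and for STS -0.18 to 0.21, and both hold 0.

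Other genes of steroid metabolism were taken from a list of 54, of which 46 were measured. These are further dehydrogenases and reductases, steroid-forming cytochromes with their partners, conjugating enzymes, steroid receptors and genes of mineralocorticoid-driven sodium transport. In ICC against Control limma passed 0 of 46 with or without the block, 0 were higher and 2 lower (HSD11B1 and SULT1E1) at an unadjusted p under 0.05 beside 7.73% of all genes, and the median difference was 0.045 log2 beside 0.0282 over all genes. In ICC against CA 0 passed, and at an unadjusted p under 0.05 1 was higher and 0 lower, beside 2.69% of all genes. With the block 2 were higher and 0 lower, beside 5.96%. In CA against Control the median was 0.00244, beside 0.00274 over all genes, and 23 of 46 lay below 0. By group in ICC against Control, 8 of 10 steroid-forming cytochromes and partners were above 0 (median 0.079), as were 9 of 13 other dehydrogenases and reductases (0.057), 6 of 10 conjugating enzymes (0.035), 4 of 7 sodium transport genes (0.011) and 2 of 6 steroid receptors (-0.044), where 39.8% of all genes were below 0. With arrays centred on their medians these counts were 8 of 10, 7 of 13, 5 of 10, 3 of 7 and 2 of 6, where 49.3% of all genes were below 0, and the median of the sodium transport genes was -0.015.

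The 4 genes of that list with the smallest p in ICC against Control were HSD11B1, SULT1E1, NR3C2 and ATP1B1. HSD11B1, which regenerates cortisol and so works against HSD11B2, stood at 4.06, 4.08 and 4.08 in Control, 3.81, 3.90 and 4.10 in CA, and 3.87, 3.73 and 3.70 in ICC. All ICC arrays lay below all Control arrays, as for 3.5% of genes, at -0.31 ± 0.0858 (limma, adjusted p 0.614), and every array was below the lower quartile of probe set means. SULT1E1, the estrogen sulfotransferase, was as dim and stood at -0.19 ± 0.0672 in ICC (limma, adjusted p 0.614). NR3C2, the mineralocorticoid receptor, stood at -0.17 ± 0.0918 in ICC (limma, adjusted p 0.668). Its arrays lay between 4.49 and 4.86, below the median of 6.46 over all genes, and ICC array 3 (4.80) was above Control array 3 (4.76). ATP1B1, a subunit of the sodium pump, was bright, between 13.02 and 13.25 on all arrays, and stood at +0.12 ± 0.0668 (adjusted p 0.682). With the probe sets of each gene averaged, ATP1B1 stood at 0.0094 and SULT1E1 at -0.074.

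The 5 genes whose log2 values were most like those of HSD3B1 over the 9 arrays, among 9882 genes at or above the median level, were FAS (r = 0.972), PROX1 (0.969), PANK2 (0.967), TFF2 (0.960) and TCN1 (0.956). FAS codes for a death receptor, PROX1 for a transcription factor, PANK2 for a kinase of coenzyme A synthesis, TFF2 for a trefoil peptide of mucus and TCN1 for a cobalamin-binding protein. In all, 41 genes had an r above 0.9. The points share arrays and array numbers, and with the mean of each number taken out the r was 0.914, 0.882, 0.914, 0.974 and 0.879, in the same order. TCN1 had the widest swing of these genes, from 9.58 on Control array 1 to 8.45 on CA array 3.

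**Figure D4:**
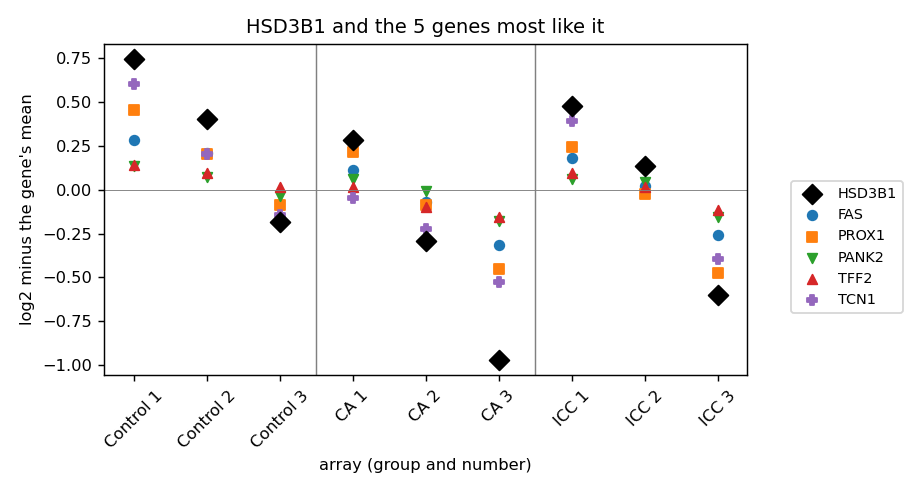
Log2 intensity minus the gene's own mean (y axis) for HSD3B1 and the 5 genes most like it on each of the 9 arrays (x axis, group and number). Points are single values. HSD3B1, as diamonds, has the widest swing, from 6.94 log2 on Control array 1 to 5.22 on CA array 3, and the other genes follow the same order within each group.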

How the data were processed

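The deposited table holds linear intensity from the authors, normalized by RMA as the submitters' processing notes state. GeneSpring GX is named in the series' design text, and which version and settings were used is not given in the sources used here. Each value was turned into its log2. Control probe sets (62 of 54675) were dropped. For the gene test the brightest probe set, by its mean on all arrays, stood for a gene (19775 genes), and those annotated to several symbols or none were dropped too. Further probe sets of a member were fitted among all 54613. Symbols come from GEO's platform annotation.

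Groups were compared with limma 3.58.1 (R 4.3.3), using all 9 arrays in a model with 3 group means and Benjamini-Hochberg adjustment over all genes. The threshold was an adjusted p under 0.05. An exact permutation of 3 against 3 arrays cannot give a p under 0.1. The titles give the replicate numbers. Deviations from the group means correlated at 0.327 to 0.518 for the 9 array pairs that share a number, and at -0.436 to 0.0839 for the other 18. The number was therefore taken as pairing the arrays and was fitted as a block in an alternative. Genes named are all members, the 4 genes of the steroid list with the smallest p in ICC against Control, and the 5 genes most like HSD3B1. The members and lists were chosen with earlier results of these data known. Other alternatives were a repeated quantile normalization, centring, no dim genes, averaged probe sets, probe sets tested singly, fits of 2 groups alone and leaving out each array. Plots were made in Python 3.11.15 with matplotlib 3.10.9.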

Additional observations from a re-analysis of the deposited data

Results flagged for a closer look

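HSD11B2 stood lower than Control in 3 of 3 pairs in CA and higher in 3 of 3 pairs in ICC, and ICC minus CA was +0.46 log2. The difference between the treatments was tested with limma and did not pass over all genes (adjusted p 1, with the block 0.563). The value was between 0.37 and 0.55 when any 1 array was left out, and between 0.37 and 0.57 with the block as well. Against Control, ICC array 1 stood 0.33 higher and ICC arrays 2 and 3 stood 0.072 and 0.0075 higher. Groups of 3 arrays were not searched for outlying arrays.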

How the results depend on the processing

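No member or named gene of the ICC comparisons reached an adjusted p under 0.05 (limma) under any alternative. This covers 758 values that share arrays, each for 1 gene or probe set in 1 comparison under 1 alternative. Those of HSD3B1 are among them and are no test, since its Control and CA values chose the set. Over all genes the counts of calls did change. Against 0 in each comparison, the replicate block called 3 genes in CA against Control and 1 in ICC against CA. With quantile normalization applied again it called 2 in ICC against CA, and with probe sets tested singly 2 in ICC against Control. With the block and 1 array left out, CA against Control ranged from 0 to 1, the 1 without Control replicate 3. The cause of these changes was not tested. The block did not change any member's call in the ICC comparisons and, with all arrays in place, leaves the differences as they are.

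HSD3B1 in CA against Control ranged from -0.96 to -0.33 when 1 array was left out and from -0.73 to -0.59 with the block as well. In ICC against Control it went from -0.57 without Control replicate 3 to -0.017 without ICC replicate 3, and with the block from -0.38 to -0.26. In ICC against CA it went from 0.0082 without CA replicate 3 to 0.64 without CA replicate 1, and with the block from 0.29 to 0.41. With the probe sets of each gene averaged HSD3B1 went from -0.65 to -0.28 in CA against Control, from -0.32 to -0.17 in ICC against Control and from 0.33 to 0.11 in ICC against CA. HSD3B1, HSD3B2 and HSD11B2 lay below the median level and had no value without dim genes.

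Small differences changed sign, with the cause not tested. Quantile normalization applied again, without or with the block, turned SRD5A1 in ICC against Control to 0.0019, and in ICC against CA the STS probe sets 203768_s_at to -0.011 and 203769_s_at to -0.010. Centring arrays on their medians turned HSD17B4 to -0.014, STS to -0.019, 203768_s_at to -0.015, 203769_s_at to -0.023 and the SRD5A1 probe set 211056_s_at to -0.026 in ICC against CA, and the HSD17B4 probe set 1563696_at to -0.024 in ICC against Control. Averaging the probe sets of each gene turned SULT1E1 to 0.0099 in ICC against CA. In CA against Control it turned SRD5A1 to -0.038 and ATP1B1 to -0.032.

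Leaving out 1 array, without or with the block, turned 20 of 40 results of the ICC comparisons. In CA against Control, which is not in that count, ranges also crossed 0. They were -0.023 to 0.14 for HSD3B2, -0.14 to 0.053 for HSD17B11, -0.19 to 0.059 for STS and -0.014 to 0.14 for SRD5A1. They were -0.17 to 0.046 for 210959_s_at, -0.058 to 0.17 for 241111_at, -0.15 to 0.013 for NR3C2 and -0.048 to 0.032 for ATP1B1. In ICC against Control the ranges were -0.083 to 0.08 for HSD17B8, -0.17 to 0.071 for STS, -0.083 to 0.078 for SRD5A1, -0.032 to 0.028 for 1563696_at, -0.010 to 0.12 for HSD17B11, -0.17 to 0.15 for 241111_at, -0.045 to 0.17 for HSD3B2 and -0.33 to 0.022 for HSD17B2. In ICC against CA they were -0.064 to 0.37 for HSD17B2, -0.059 to 0.019 for SULT1E1, -0.10 to 0.12 for HSD3B2, -0.072 to 0.10 for STS, -0.15 to 0.086 for 210959_s_at, -0.10 to 0.076 for 211056_s_at, -0.0073 to 0.18 for HSD17B11, -0.047 to 0.08 for 203768_s_at, -0.078 to 0.084 for 203769_s_at, -0.0085 to 0.048 for HSD17B4, -0.25 to 0.068 for 241111_at and -0.14 to 0.011 for SRD5A1.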
